A study of Mus musculus with 6 samples.

Results

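Trem2+ M2 macrophages were 757 of the 5749 cells in 12 mouse tumours and were taken as the cells that the authors' deposited annotation places in the class of that name, 1 of 19 classes. The tumours came from PPS-ICBR, a mouse prostate cancer line resistant to immune checkpoint blockade, grown in C57Bl6 mice. In the BD+ICB group, mice received the butanediol diet together with checkpoint blockade by anti-CTLA-4 and anti-PD-1 antibodies, for which the labels give 0.2 mg. The ICB group received the blockade on standard diet, the BD group received the butanediol diet alone, and the SD group received the standard diet alone. Each group held 3 tumours, each tumour carried its own hashtag antibody within its library, and all cells passed through leukocyte enrichment on a density gradient. For the butanediol diet, 198 g of chow was mixed with 80 mL of 1,3-butanediol, 2 g of saccharine and 120 mL of water, and the body turns butanediol into the ketone β-hydroxybutyrate.

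Trem2 is a surface receptor of macrophages and microglia that binds lipids, apolipoproteins and cell debris and signals through the adaptor Tyrobp. Macrophages that carry it are known for clearing dead cells, for lipid handling through Apoe and for the complement component C1q. In tumours such cells have been linked to weak T cell responses. MHC class I genes, which present peptides to CD8 T cells, and interferon-gamma target genes mark the opposite, antigen-presenting side of macrophage behaviour.

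The BD+ICB and ICB tumours shared 1 library and the BD and SD tumours shared the other, so the diet groups were compared inside a library, while the blockade and the library cannot be told apart. Summed UMIs of the class ran from 144239 in BD+ICB tumour 3 to 1936672 in ICB tumour 1, and median UMIs per cell from 3983.5 to 10606.5 over the tumours. Of the barcodes, 1931 occurred in both libraries, and 2 of the 757 cells carried such a barcode, both with fewer UMIs than its copy in the other library. ICB tumour 1 gave 233 of the 288 cells of its group, so some results of that group are also given without it. Without that tumour, 9 of the 289 genes that passed in ICB against SD tumours still passed. A gene given with no such value may therefore lose its call. Tumour sizes listed by the authors, with no unit, were 23 to 90 in BD+ICB, 289 to 1116 in ICB, 172 to 203 in BD tumours and 870 to 2348 in SD tumours; their part in any result was not tested. The labels name no mice, so p-values measure the spread between these tumours.

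The class carried its markers, but its name-giving gene did not set it apart. Levels are CPM, the class's summed UMIs of a gene scaled to a total of 1000000 per tumour, here as mean ± SD over the tumours with at least 10 cells of the class. Trem2 stood at 496 ± 141 CPM in Trem2+ M2 macrophages (n = 12), against 482 ± 198 in Mmp+ M2 macrophages (n = 12), 295 ± 106 in macrophages named M1 (n = 10), 371 ± 171 in other macrophages (n = 8) and 10.2 ± 10.5 in Cxcr2+ neutrophils (n = 11). The spreads of Trem2 in the Trem2+ and Mmp+ classes overlapped almost wholly. Apoe, the lipid-carrying apolipoprotein, was higher, at 17300 ± 5990 CPM in Trem2+ M2 macrophages, against 9010 ± 5340 in the Mmp+ class and 3940 ± 2380 in the M1-named class. Selenop, a secreted selenoprotein, reached 595 ± 194 CPM in the class, against 173 ± 62.5 in the Mmp+ class and 283 ± 139 in other macrophages. The mannose receptor Mrc1 reached 489 ± 169 CPM, against 210 ± 95.7 in the Mmp+ class and 332 ± 138 in other macrophages. C1qa, a chain of complement C1q, stood at 3290 ± 774 CPM and Ms4a7 at 651 ± 216 CPM, against 2690 ± 914 and 511 ± 194 in other macrophages. Ccl8, a monocyte-attracting chemokine, varied most, at 210 ± 264 CPM in the class and 28.2 ± 29.1 in the Mmp+ class. Trem2 and all 6 markers had their highest mean among the 4 macrophage classes in this one; since the classes were named from the same cells, these levels are a description with no test.

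**Figure D1:**
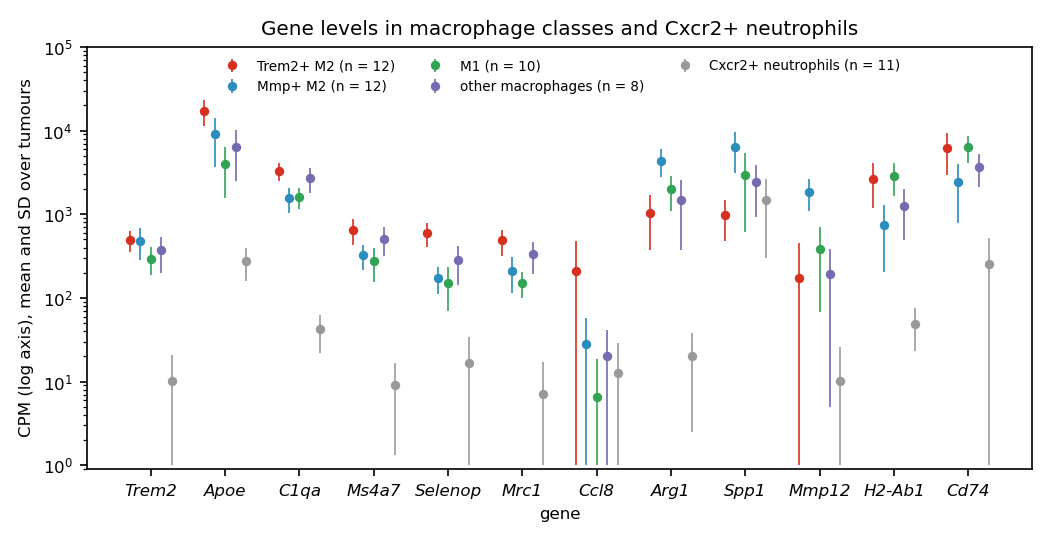
Mean CPM (log axis, bars are SD over tumours, drawn down to no lower than 1) of 12 genes in 4 macrophage classes and in Cxcr2+ neutrophils. Trem2 is alike in Trem2+ M2 and Mmp+ M2 macrophages, Apoe, Selenop and Mrc1 are highest in Trem2+ M2 macrophages, and Arg1, Spp1 and Mmp12 are highest in Mmp+ M2 macrophages.

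Arg1, Spp1 and Mmp12, genes of wound-type macrophages, were lower in the class than in Mmp+ M2 macrophages. Arg1, the arginase of alternatively activated macrophages, stood at 1040 ± 664 CPM, against 4370 ± 1610 in the Mmp+ class. Spp1, osteopontin, stood at 986 ± 500 CPM, against 6410 ± 3250, and the elastase Mmp12 at 172 ± 288 CPM, against 1860 ± 778. The MHC class II gene H2-Ab1 reached 2630 ± 1450 CPM, near the 2860 ± 1190 of the M1-named class and above the 754 ± 550 of the Mmp+ class. After each cell was thinned to 1000 UMIs, 35.6% of 735 Trem2+ M2 macrophages had a Trem2 UMI (95% Wilson interval 32.3 to 39.2), against 29.8% in the Mmp+ class and 1.29% in Cxcr2+ neutrophils, whose share stands for the background of free RNA. Without thinning the share was 80.8% at a median of 7966.0 UMIs, and 2.69% in the neutrophils at a median of 2393.0 UMIs. C1qa had a UMI in 76.3% of thinned cells and Apoe in 94.6%, against 3.86% and 20.7% in the neutrophils. Thinned other macrophages had a C1qa UMI in 78.9%, an Apoe UMI in 79.4% and a Trem2 UMI in 33.3% of cells. EGFP and tdTomato, reporters counted in the tables, gave 0 UMIs in 757 cells, which allows a share of cells with a UMI of up to 0.396% and sets no limit on cells that express them, since the proliferating cancer class itself held 57 and 113 UMIs.

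Markers of other cell types, monocytes apart, were far below their level in those cells. The 12 neutrophil genes summed to 139 to 570 CPM in BD+ICB tumours, 234 to 1170 in ICB tumours, 104 to 266 in BD tumours and 714 to 955 in SD tumours, against 91900 CPM in Cxcr2+ neutrophils, with Cxcr1 at 0 in every tumour. The 15 T and NK cell genes summed to at most 236 CPM, against 10100 in CD8 T cells, and the 12 conventional dendritic cell genes to at most 87.2 CPM, against 6270 in Batf3+ dendritic cells. The 10 monocyte genes summed to 2440 to 3930 CPM in BD+ICB tumours, 2240 to 3670 in ICB tumours, 3680 to 4950 in BD tumours and 2220 to 3890 in SD tumours, against 12900 in Vcan+ monocytes; the part of monocyte RNA in the results was not tested. The 10 fibroblast genes summed to 243 to 374 CPM in BD+ICB tumours, 270 to 394 in ICB tumours, 268 to 453 in BD tumours and 284 to 332 in SD tumours, against 11600 in mesenchymal cells. The 8 epithelial and cancer genes in the table summed to at most 55.1 CPM, and Krt19, Krt5, Krt14 and Cldn4 were at 0 throughout.

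The class joined 2 of the authors' clusters, cluster 4 with 447 cells and cluster 8 with 310, and the 2 libraries held them in different proportions. Cluster 8 made up 4.55, 4.35 and 5.56% of the class in the BD+ICB tumours and 3.86, 20.7 and 30.8% in the ICB tumours. It made up 27.6, 85.0 and 78.8% in the BD tumours and 76.5, 85.2 and 93.1% in the SD tumours. Every tumour with blockade held mostly cluster 4, as did BD tumour 1, and the other 5 tumours held mostly cluster 8. Over the libraries, 27 of 373 cells (7.24%) with blockade and 283 of 384 (73.7%) without were in cluster 8. Since clusters were built on the same expression values, and follow the library, these shares were not tested.

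**Figure D2:**
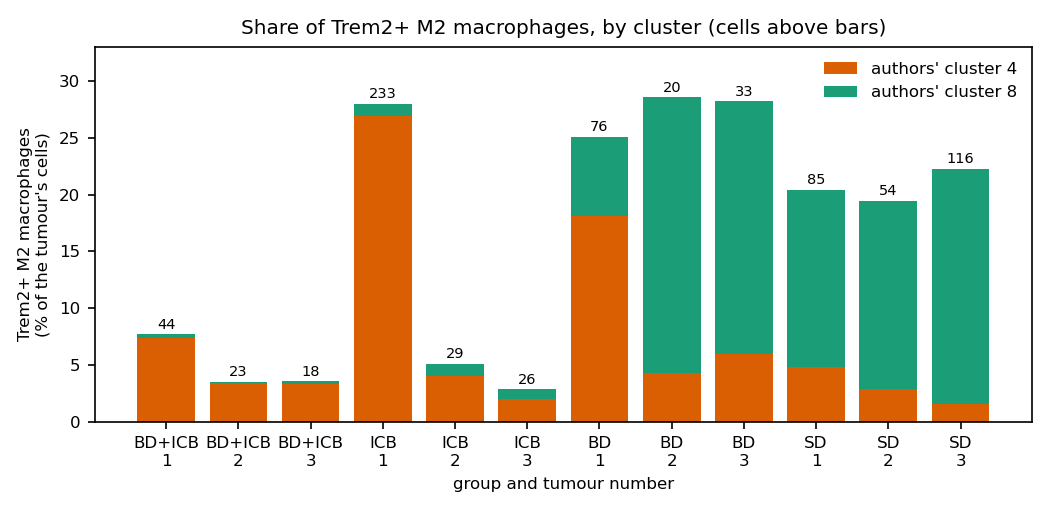
Trem2+ M2 macrophages as percent of the cells of each tumour, split by the authors' cluster, with the number of cells above each bar. Cluster 8 makes up most of the class in the 3 SD tumours and in BD tumours 2 and 3, and cluster 4 in the other 7 tumours.

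The 2 clusters differed in their leading genes, described here in BD tumour 1 and SD tumour 1, those with at least 10 cells of both. Cluster 8 was led by Fcrls, an Fc receptor-like gene known from microglia and resident macrophages, at 216.4 CPM in BD tumour 1 and 742.4 in SD tumour 1, against 61.4 and 21.6 CPM in cluster 4. Next came Spp1, at 1901 and 1714 CPM in cluster 8, against 376 and 421 in cluster 4. Arg1 was also among its leading genes, so these genes of the wound type were higher in this cluster. Spp1 also stood at 1480 ± 1180 CPM in Cxcr2+ neutrophils (n = 11). After thinning to 1000 UMIs, 30.9% of the cells of the whole class had a Spp1 UMI, against 30.3% of these neutrophils. The part of free RNA in Spp1 was not tested. Cluster 8 also had more of the chemokine Pf4, the folate receptor Folr2, the clotting factor gene F13a1, the growth factor Igf1 and Gas6. Gas6 is the bridge between dying cells and their receptors. Cluster 4 was led by Ccl5, a T cell-attracting chemokine, at 825.0 and 410.2 CPM, against 72.1 and 49.5 in cluster 8. Cxcl9, the interferon-gamma induced ligand of CXCR3, stood at 276.3 and 1371.0 CPM in cluster 4, against 91.8 and 127.0 in cluster 8. The prostaglandin synthase Ptgs2, the MHC class II genes H2-Aa, H2-Ab1 and H2-Eb1, and the interferon-inducible GTPases Gbp2 and Irgm1 were also higher in cluster 4. All 8 MHC class II genes with at least 20 CPM were higher in cluster 4 in both tumours, with a median log2 difference of -1.42 for cluster 8 over cluster 4, and 15 of 19 interferon-gamma genes were. Respiratory chain genes lay the other way, with 23 of 30 higher in cluster 8. Median UMIs were 6224.0 in cluster 4 and 9167.0 in cluster 8.

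The share of the class among a tumour's cells passed the exact permutation test in no comparison. Trem2+ M2 macrophages were 7.71, 3.53 and 3.54% of cells in BD+ICB tumours, 28.0, 5.1 and 2.85% in ICB, 25.1, 28.6 and 28.2% in BD and 20.4, 19.4 and 22.3% in SD tumours. BD+ICB tumours lay below BD tumours with no overlap, by 22.4 points, but an exact two-sided permutation of 3 against 3 tumours cannot go below p = 0.1, which it gave (adjusted p = 0.158 over 19 classes). When cells per class were instead fitted as counts with edgeR, this difference passed, at a log2 fold change of -2.46 (edgeR adjusted p = 0.00602). BD tumours lay above SD tumours, also with no overlap, by 6.58 points (exact p = 0.1, adjusted p = 0.38). Of the 4 macrophage classes alone, Trem2+ M2 cells were 48.9 ± 10.5% in BD and 66.3 ± 6.35% in SD tumours (SD, n = 3 each), a difference of -17.4 points (exact p = 0.2), so the direction of the diet difference turned with the denominator. On that denominator BD+ICB over ICB lay the same way, at -18.4 points (exact p = 0.4), and the diet over both libraries at -17.9 points (exact p = 0.04, adjusted p = 0.08 over 4 classes), against -0.238 points among all cells (exact p = 0.995). BD+ICB and ICB tumours overlapped, with a difference of -7.06 points (exact p = 0.7) that became 0.955 points without ICB tumour 1. ICB tumours lay 8.72 points below SD tumours on average but overlapped them (exact p = 0.4); the overlap rested on ICB tumour 1, without which the difference was -16.7 points. Neutrophils made up 3.5 to 20.1% of cells in BD+ICB tumours, 12.7 to 47.6% in ICB tumours, 4.95 to 40.0% in BD tumours and 25.7 to 42.8% in SD tumours, and fewer cells of the class cannot be told apart from more of the others.

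The first question of the design was what the butanediol diet changed. In BD against SD tumours, edgeR's quasi-likelihood test called 0 of 5049 genes of the class (0%), with 314 genes (6.22%) at an unadjusted p under 0.05 and 0 called by DESeq2. Arg1 had 1260, 1030 and 1840 CPM in BD tumours, against 186, 222 and 449 in SD tumours. The groups did not overlap, but the log2 fold change of 2.22 ± 0.57 (SE) did not pass (edgeR adjusted p = 0.777). Abca1, the pump that exports cholesterol, had 666, 732 and 749 CPM in BD and 285, 407 and 398 in SD tumours, a log2 fold change of 0.93 ± 0.23 (edgeR adjusted p = 0.762). Cst3, the protease inhibitor cystatin C, had 1440, 1700 and 1650 CPM in BD and 2420, 2380 and 2290 in SD tumours, a log2 fold change of -0.62 ± 0.16 (edgeR adjusted p = 0.762). Flrt3, the costimulatory receptor Tnfrsf9, Tcf7l2 and Plaa, with positive folds, and Ndufa12, Ssr2, Cd52 and Spcs2, with negative folds, completed the 5 smallest p-values each way. With cluster 8 cells alone, an alternative chosen after seeing the data, 3 genes passed.

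Under blockade the diet comparison was again without a call. In BD+ICB against ICB tumours 0 of 5049 genes passed with edgeR (0%), 308 (6.1%) had an unadjusted p under 0.05, and DESeq2 called 3. Bst1 (CD157), a surface enzyme that uses NAD, came closest, with 219, 256 and 263 CPM in BD+ICB tumours, against 102, 38.6 and 87.5 in ICB tumours. Its 2 groups did not overlap, with a log2 fold change of 1.59 ± 0.29 (edgeR adjusted p = 0.0581). Nos2, the inducible nitric oxide synthase of classically activated macrophages, had 54.8, 138 and 180 CPM in BD+ICB and 12.4, 25.7 and 0 in ICB tumours, a log2 fold change of 3.09 ± 0.60 (edgeR adjusted p = 0.116). Mef2c, a transcription factor of resident macrophages and microglia, had 32.5, 10.3 and 20.8 CPM in BD+ICB and 82.6, 81.5 and 56.2 in ICB tumours, a log2 fold change of -1.64 ± 0.34 (edgeR adjusted p = 0.112). Fth1, the iron store ferritin heavy chain, Grina and Agtrap had positive folds, and Ptgs1, Coro1a, Pou2f2 and the monocyte chemokine receptor Ccr2 had negative ones. The interferon-gamma list had 18 of 21 genes with a positive fold and a median log2 fold change of 0.62, the glycolysis list 23 of 24 and 0.31, beside a median of 0.00 over all genes; none of these genes passed.

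Averaged over both libraries, the diet effect passed in 0 of 5049 genes with edgeR (0%) and in 2 with DESeq2, with 363 genes (7.19%) at an unadjusted p under 0.05. Bst1 again came closest with a log2 fold change of 1.21 ± 0.22 (edgeR adjusted p = 0.0627). The difference of the diet effect between the libraries gave 0 genes (0%), with 239 (4.73%) at an unadjusted p under 0.05. Of the 11 genes of ketone use and transport tested and the 7 tested from a list of histone deacetylases and sirtuins, none passed in a diet comparison. Some histone deacetylases are known to be inhibited by β-hydroxybutyrate, and RNA levels do not measure that inhibition. Oxct1, the enzyme that starts ketone use, had 36.5, 56.4 and 55.5 CPM in BD+ICB, 50.1, 73.0 and 37.5 in ICB, 33.9, 20.2 and 60.4 in BD and 40.1, 52.9 and 43.5 in SD tumours, with all groups overlapping. Hcar2, the receptor for β-hydroxybutyrate, had 42.6, 41.0 and 69.3 CPM in BD+ICB, 25.3, 34.3 and 12.5 in ICB, 21.8, 0 and 6.04 in BD and 31.5, 12.7 and 13.8 in SD tumours. Its log2 fold change was 0.94 ± 0.47 in BD+ICB over ICB (edgeR adjusted p = 0.797) and -0.80 ± 0.60 in BD over SD (edgeR adjusted p = 0.863). The 6 class markers were called in no comparison; Apoe, for example, had 24400, 10900 and 11900 CPM in BD+ICB, 22700, 18400 and 7960 in ICB, 12100, 19600 and 21400 in BD and 13000, 26600 and 18500 in SD tumours.

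**Figure D3:**
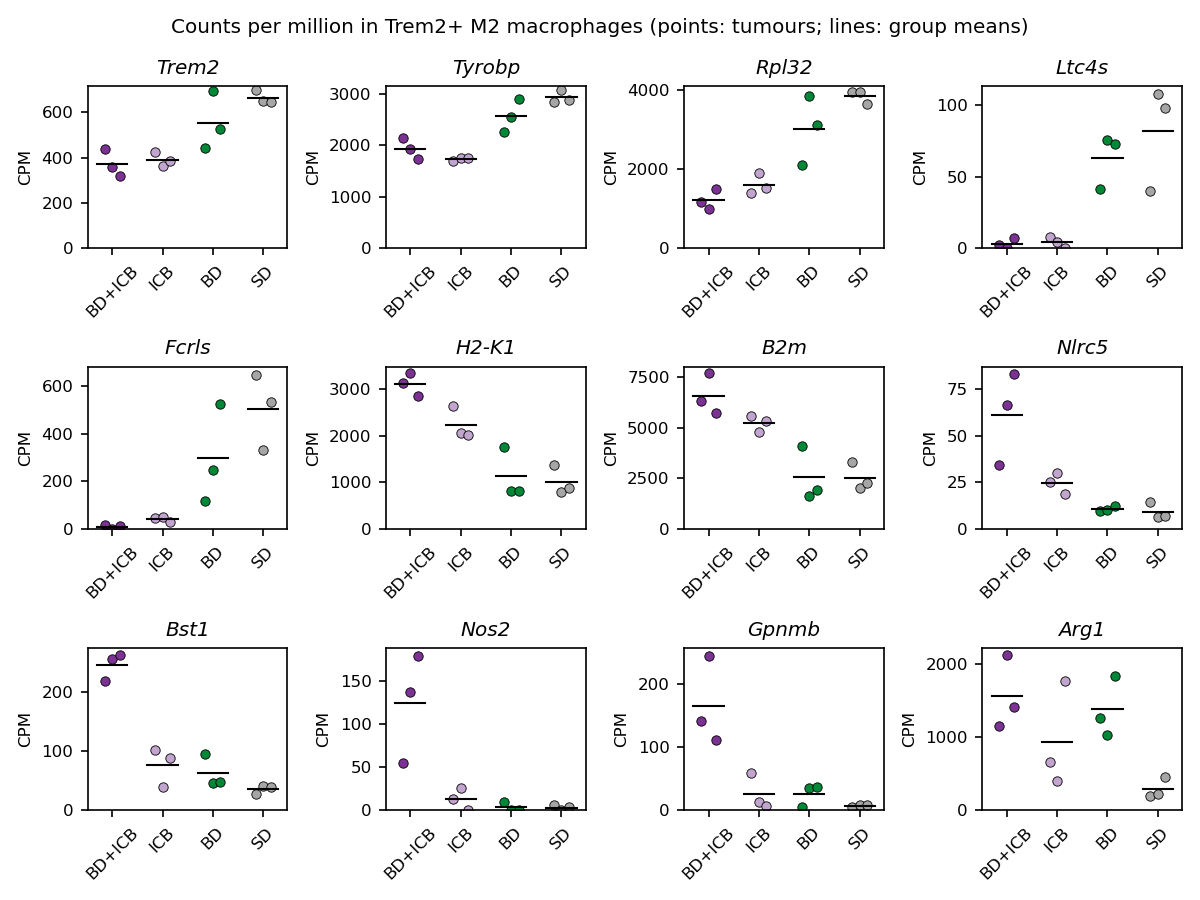
CPM of 12 genes in Trem2+ M2 macrophages of each tumour (points) with group means (lines), axes starting at 0. Trem2, Tyrobp, Rpl32, Ltc4s and Fcrls are lower in both groups with blockade than in SD tumours, H2-K1 and B2m are higher in all 6 blockade tumours than in the BD and SD tumours, and Bst1, Nos2 and Gpnmb are highest in BD+ICB tumours.

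The largest differences lay between the tumours with and without blockade, which cannot be told apart from the library. In BD+ICB against BD tumours, edgeR called 199 of 5049 genes (3.94%), 89 raised (1.76%) and 110 lowered (2.18%), with 812 (16.1%) at an unadjusted p under 0.05. In ICB against SD tumours it called 289 (5.72%), 115 raised (2.28%) and 174 lowered (3.45%), with 1139 (22.6%) at an unadjusted p under 0.05. These 2 comparisons share no tumour, but both set the same library against the other. They shared 104 called genes, 52.3% of the 199 genes of BD+ICB against BD and 36.0% of the 289 genes of ICB against SD; of the shared genes 25 were raised in both, 79 lowered in both and 0 went opposite ways. The counts rested on single tumours: BD+ICB against BD gave 303, 43 and 32 genes without BD tumours 1, 2 and 3 and 85 and 58 without BD+ICB tumours 1 and 2, and with at least 30 cells per tumour, which left 1 BD+ICB tumour, it gave 7 with no replicate in that arm. ICB against SD gave 9 without ICB tumour 1 and 129, 139 and 100 without SD tumours 1, 2 and 3.

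MHC class I genes were higher in BD+ICB than in BD tumours. Of 18 genes of MHC class I presentation tested, 9 rose, against 1.76% of all genes, and the list's median log2 fold change was 1.39 beside 0.00 over all genes. H2-K1, a classical MHC class I heavy chain, had 3130, 3350 and 2850 CPM in BD+ICB tumours, against 1760, 818 and 822 in BD tumours, a log2 fold change of 1.52 ± 0.27 (edgeR adjusted p = 0.00632). B2m, the light chain of every class I molecule, had 6340, 7710 and 5720 CPM in BD+ICB, against 4120, 1640 and 1910 in BD tumours, a log2 fold change of 1.44 ± 0.29 (edgeR adjusted p = 0.0148). Both genes separated the groups without overlap, but the call of B2m was lost without BD+ICB tumour 2 or BD tumour 3 (edgeR adjusted p = 0.0516 and 0.0518). H2-D1, H2-T23, H2-Q4, the proteasome subunit Psmb9, the peptide transporter subunit Tap2, the loading factor Tapbp and Nlrc5, the transactivator of class I genes, also rose. Nlrc5 had 34.5, 66.7 and 83.2 CPM in BD+ICB tumours, against 9.68, 10.1 and 12.1 in BD tumours. In ICB against SD tumours H2-K1 and H2-T22 rose of the same 18 genes, beside 2.28% of all genes. The list's median was 0.965 there, beside 0.0454 over all genes. H2-K1 had 2650, 2070 and 2010 CPM in ICB, against 1380, 786 and 881 in SD tumours (edgeR adjusted p = 0.0221). Its edgeR adjusted p was 0.138, 0.0716 and 0.0783 without ICB tumour 1, SD tumour 2 or SD tumour 3. Classical and nonclassical class I genes are near copies of each other, so reads of H2-K1, H2-D1 and H2-Q4 may have been split between them.

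In cluster 4 cells alone, H2-K1 stood at 3180, 3390 and 2920 CPM in the BD+ICB tumours, 2660, 2230 and 2600 in the ICB tumours, 2000 in BD tumour 1 and 1640 in SD tumour 1. H2-K1 was higher in every blockade tumour than in the other 2, as was B2m, at 6470, 7890 and 5910 CPM in BD+ICB, 5610, 5340 and 5590 in ICB, 4210 in BD tumour 1 and 3960 in SD tumour 1. Other class I genes were not: H2-T22 had 72.1, 145 and 39.5 CPM in the ICB tumours, against 97.1 in SD tumour 1, and H2-T23 had 196, 331 and 145 in the ICB tumours, against 313 in SD tumour 1. Cluster 4 was the cluster with more MHC and interferon-gamma genes and its share differed between these groups; its part in the class-wide differences was not tested. BD and SD tumours had at least 10 cluster 4 cells in 1 tumour each, so this has no test.

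As the 9 raised class I genes moved together, their promoters were searched for an interferon-type motif, and the stretches that hold it are shown. Of 7 with a promoter in the RefSeq table (GRCm38.p6, 250 bases before to 50 after the start), B2m and H2-T23 held GAAA, any 2 bases and GAAA again on either strand, the core of the element bound by interferon regulatory factors, against 3.44% of all 32851 promoters. The match is in capitals, and the first base lies at position -139 from the start of B2m (chr2:122147523-122147582, plus strand) and at position -124 of H2-T23 (chr17:36032791-36032850, minus strand). H2-T23 holds the motif's reverse complement.
B2m: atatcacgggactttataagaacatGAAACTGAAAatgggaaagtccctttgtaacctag
H2-T23: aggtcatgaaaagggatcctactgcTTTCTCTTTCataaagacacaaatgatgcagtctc
A match of letters is a description of the sequence, and its absence in the other 5 promoters says nothing about factors that bind there. Only this exact string was searched, so other forms of an interferon element in those 5 promoters were not counted.

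A few interferon targets rose as well. Of 21 interferon-gamma response genes, Igtp, Gbp3 and Gbp7, GTPases of cell-intrinsic defence, rose in BD+ICB against BD tumours, beside 1.76% of all genes, with a list median of 1.96. Socs1, a brake on cytokine signalling, was the 1 of these 21 that rose in ICB against SD tumours, beside 2.28% of all genes, with a list median of 1.53. Of 17 type I interferon genes, Oasl2 and Ifi205 rose in BD+ICB against BD tumours, beside the same 1.76% of all genes. Nos2 stood at 54.8, 138 and 180 CPM in BD+ICB tumours, against 9.68, 0 and 0 in BD tumours, and rose (edgeR adjusted p = 0.00564). Its fitted fold depends on the prior count, as 2 BD tumours held no Nos2 UMI. Class I and interferon-gamma genes also rose in other classes, with 2 BD tumours in the M1-named class and in the neutrophils: in BD+ICB against BD tumours, 5 of 17 class I and 9 of 19 interferon-gamma genes rose in Mmp+ M2 macrophages, 7 of 18 and 3 of 23 in M1-named macrophages, and 9 of 15 and 9 of 17 in Cxcr2+ neutrophils. Of all genes tested there, 0.783%, 1.04% and 2.84% rose in these 3 classes.

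**Figure D4:**
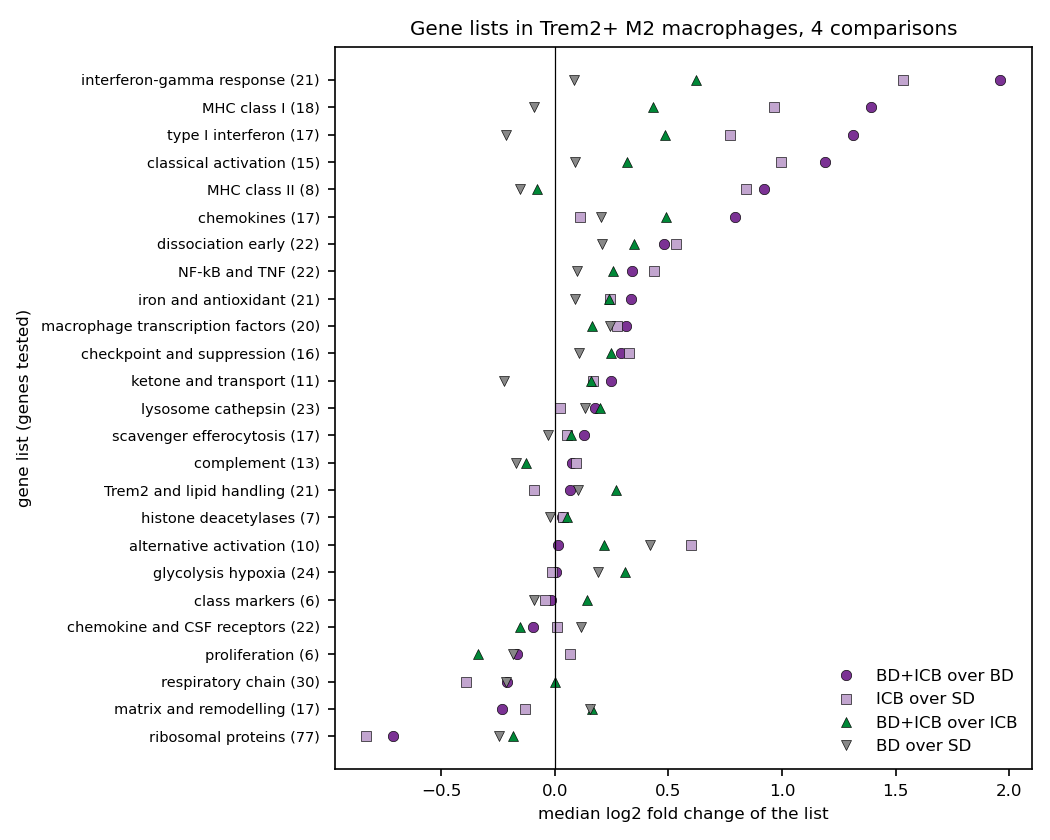
Median log2 fold change (horizontal axis) of each gene list (vertical axis, with the number of genes tested) in Trem2+ M2 macrophages for 4 comparisons. The interferon-gamma list has medians of 1.96 and 1.53 in the 2 comparisons across libraries and 0.62 and 0.08 in the 2 diet comparisons, and the ribosomal protein genes lie at -0.71 and -0.83 across libraries.

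Bst1, Psap and Gpnmb were also higher in BD+ICB than in BD tumours. As lists, the lysosome genes had 3 raised and 1 lowered of 23 and the Trem2 and lipid genes 1 raised and 1 lowered of 21. Of all genes tested, 1.76% were raised and 2.18% lowered in this comparison. Bst1 had 219, 256 and 263 CPM in BD+ICB and 94.4, 45.4 and 48.3 in BD tumours, a log2 fold change of 1.96 ± 0.31 (edgeR adjusted p = 0.00157). Psap, prosaposin, the precursor of the activators of lysosomal lipid breakdown, had 5340, 7540 and 4670 CPM in BD+ICB and 3210, 2350 and 2670 in BD tumours (edgeR adjusted p = 0.0026). Gpnmb, a glycoprotein of lipid-laden macrophages, had 142, 246 and 111 CPM in BD+ICB and 4.84, 35.3 and 36.3 in BD tumours (edgeR adjusted p = 0.0264). In these 3 genes every BD+ICB tumour lay above every BD tumour. Smpdl3b and Ddhd1, enzymes of lipid breakdown, the cathepsins Ctss and Ctsc, the decoy Il18bp, Lgals3bp, Ly6e, Grina, the proton channel Hvcn1, properdin (Cfp), the chemokine Ccl3 and Hcar2 also rose. Egr1 and Egr2, early response genes that also rise when tissue is taken apart, were the 2 of 22 genes of the dissociation list that rose, and its median was 0.482; the part of tissue handling was not tested.

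In ICB against SD tumours other genes led, and only 9 of the 289 calls of this comparison held without ICB tumour 1. Tcf7l2, a transcription factor of the Wnt pathway, had 101, 68.7 and 62.5 CPM in ICB and 27.2, 25.4 and 30.7 in SD tumours, a log2 fold change of 1.57 ± 0.28 (edgeR adjusted p = 0.00377). The adhesion molecule Pecam1 had 35.1, 47.2 and 25.0 CPM in ICB and 7.16, 4.24 and 10.9 in SD tumours, a log2 fold change of 2.11 ± 0.41 (edgeR adjusted p = 0.00612). Pecam1 is also an endothelial gene, and the 6 endothelial genes summed to 25.0 to 73.0 CPM in ICB and 10.6 to 20.8 in SD tumours, led by Pecam1 itself; the part of endothelial RNA was not tested. Csrnp1, Mafk, Tgm2, Klra2, Aoah, Bhlhe40, Lmo4, Itgal, Chka, Tra2a, Slco3a1, Ifi205 and Gm42418 completed the 15 raised genes with the smallest p, and the hexokinases Hk2 and Hk3 and the adhesion molecule Icam1 rose as members of their lists. Junb and Zfp36 were the 2 of 22 genes of the dissociation list that rose, beside 2.28% of all genes, and that list's median was 0.531.

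Ltc4s, Fcrls, Gpr34 and Mef2c were lower with blockade on both diets. As a list, the macrophage identity transcription factors had 1 raised and 1 lowered of 20 in each comparison. Of all genes tested, 1.76% were raised and 2.18% lowered in BD+ICB against BD tumours. In ICB against SD tumours 2.28% were raised and 3.45% lowered. Ltc4s, the synthase of leukotriene C4, had 2.03, 0 and 6.93 CPM in BD+ICB, against 41.1, 75.7 and 72.5 in BD tumours, and 7.75, 4.29 and 0 in ICB, against 40.1, 108 and 97.9 in SD tumours. It fell in both comparisons (edgeR adjusted p = 0.00437 in BD+ICB against BD and 0.000467 in ICB against SD), with no overlap in either; the call in BD+ICB against BD was lost without BD+ICB tumour 1 (edgeR adjusted p = 0.0539). Fcrls had 16.2, 0 and 13.9 CPM in BD+ICB, against 119, 247 and 523 in BD tumours, and 47.5, 51.5 and 31.2 in ICB, against 647, 332 and 533 in SD tumours, and fell in both (edgeR adjusted p = 0.0131 in BD+ICB against BD and 0.0103 in ICB against SD, and 0.106 there without ICB tumour 1). In BD+ICB against BD the call of Fcrls was lost without BD+ICB tumour 1 or BD tumour 2 (edgeR adjusted p = 0.0569 and 0.0571). Gpr34, a lysophospholipid receptor of microglia, had 6.09, 0 and 0 CPM in BD+ICB, against 29.0, 65.6 and 66.5 in BD tumours (edgeR adjusted p = 0.00437), and 14.5, 8.58 and 25.0 in ICB, against 31.5, 44.5 and 62.3 in SD tumours (edgeR adjusted p = 0.0159). Mef2c had 32.5, 10.3 and 20.8 CPM in BD+ICB, against 128, 111 and 142 in BD tumours, a log2 fold change of -2.33 ± 0.33 (edgeR adjusted p = 0.000647), and also fell in ICB against SD tumours (edgeR adjusted p = 0.0309). Htra3, the integrin Itga6, Ccr2, Ptgs1, the scavenger receptor Stab1 and the lipoprotein receptor Lrp1 fell in BD+ICB against BD tumours, and the collagen gene Col14a1 and the lectin Lgals1 fell in ICB against SD tumours. Fcrls and Col14a1 were also leading genes of cluster 8. In cluster 4 cells alone Fcrls stood at 6.48, 0 and 15.2 CPM in BD+ICB, 46.8, 36.1 and 39.5 in ICB, 61.4 in BD tumour 1 and 21.6 in SD tumour 1, so that within this cluster the ICB tumours lay above SD tumour 1. Ltc4s was lower there, with at most 8.07 CPM in the 6 blockade tumours, against 42.2 in BD tumour 1 and 21.6 in SD tumour 1. Cluster 4 of SD tumour 1 held 20 cells, so the 21.6 CPM of Fcrls and of Ltc4s rest on few UMIs in 1 tumour.

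Trem2 itself was lower in ICB than in SD tumours. It had 423, 365 and 387 CPM in ICB and 698, 650 and 646 in SD tumours, with no overlap and a log2 fold change of -0.78 ± 0.20 (edgeR adjusted p = 0.0226). Its adaptor Tyrobp had 1700, 1760 and 1760 CPM in ICB and 2840, 3090 and 2880 in SD tumours, a log2 fold change of -0.78 ± 0.16 (edgeR adjusted p = 0.00673, and 0.0717 without ICB tumour 1). Cd63, a lysosomal membrane protein, also fell, which made 3 of the 21 tested genes of the Trem2 and lipid list, beside 3.45% of all genes. The call of Trem2 was lost without any 1 of the ICB or SD tumours (edgeR adjusted p = 0.0556 to 0.0987), with its direction kept. In BD+ICB tumours Trem2 had 438, 359 and 319 CPM, against 441, 697 and 526 in BD tumours, a log2 fold change of -0.49 ± 0.21 that did not pass (edgeR adjusted p = 0.221). In cluster 4 cells alone Trem2 had 445, 370 and 296 CPM in BD+ICB, 423, 343 and 355 in ICB, 403 in BD tumour 1 and 378 in SD tumour 1, and these values overlapped. Outside the class, Trem2 had a log2 fold change in ICB over SD of -1.01 in Mmp+ M2 (edgeR adjusted p = 0.14), -0.70 in M1-named (edgeR adjusted p = 0.182) and -1.18 in other macrophages (edgeR adjusted p = 0.172).

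Ribosomal protein genes were the largest lowered group, a list chosen after their values were seen. In BD+ICB against BD tumours 58 of 77 fell, beside 2.18% of all genes, with a median log2 fold change of -0.713. In ICB against SD tumours 65 of 77 fell, beside 3.45% of all genes, with a median of -0.83, and 54 fell in both. Without ICB tumour 1, which leaves fewer tumours to test, ICB against SD called 9 genes of any kind, so most of these calls were lost. Rpl32 had 1170, 1000 and 1500 CPM in BD+ICB, against 2110, 3860 and 3110 in BD tumours, and 1390, 1910 and 1510 in ICB, against 3950, 3960 and 3650 in SD tumours. The ribosomal protein genes took 8.94 to 10.0% of the class's UMIs in BD+ICB, 9.7 to 12.6% in ICB, 14.2 to 17.9% in BD tumours and 17.9 to 19.0% in SD tumours. In cluster 4 cells alone all 58 genes called in BD+ICB against BD and all 65 called in ICB against SD had the same direction. The reference there was 1 BD and 1 SD tumour, both also part of the full comparisons, so this has no test. The decrease was also found in other classes: in ICB against SD tumours 65 of 77 fell in Mmp+ M2 macrophages, 37 of 77 in other macrophages and 0 of 77 in M1-named macrophages and Cxcr2+ neutrophils, with medians of -1.01, -0.466, -0.501 and -0.53. Of all genes tested, 2.35% fell in Mmp+ M2, 2.39% in other and 0.0149% in M1-named macrophages and 0.236% in the neutrophils. Of 30 nuclear genes of the respiratory chain, 6 fell in ICB against SD tumours, beside 3.45% of all genes, with a list median of -0.389. These 6 were Ndufb9, Atp5g1, Ndufa4, Atp5h, Atp5o and Cox4i1, and 0 of the 30 fell in BD+ICB against BD tumours. Processed pseudogenes of ribosomal proteins can share reads with these genes.

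Whether the class responded to the diet differently from its neighbours was tested directly, with each tumour as a block. Against Mmp+ M2 macrophages 1 of 5434 genes (0.0184%) differed, with edgeR's quasi-likelihood test. Tnfsf9, the ligand of 4-1BB, had a diet effect 1.67 ± 0.28 higher on the log2 scale in Trem2+ M2 macrophages (edgeR adjusted p = 0.00357). In the Mmp+ class it had 50.4, 134 and 105 CPM in BD+ICB, 109, 192 and 122 in ICB, 100, 15.4 and 39.4 in BD and 194, 137 and 154 in SD tumours. In Trem2+ M2 macrophages it had 60.9, 210 and 201 CPM in BD+ICB, 60.9, 94.4 and 25.0 in ICB, 70.2, 35.3 and 33.2 in BD and 55.8, 40.2 and 60.3 in SD tumours, with overlap in both diet pairs. The SD and BD tumours thus separated in the Mmp+ class and overlapped in the Trem2+ class.

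Against M1-named macrophages, in the 10 tumours with at least 10 cells of both, 5 of 6543 genes (0.0764%) differed in their diet effect. Psap had 5850 ± 1510 CPM in BD+ICB and 3560 ± 618 in ICB tumours and 2740 ± 437 in BD and 2030 ± 360 in SD tumours in the Trem2+ class (SD, n = 3 each). In the M1-named class Psap had 2600 ± 126 CPM in BD+ICB and 2550 ± 293 in ICB tumours (SD, n = 3 each) and 1710 ± 482 in BD and 1880 ± 106 in SD tumours (SD, n = 2 each), a difference of 0.63 ± 0.12 (edgeR adjusted p = 0.00786). Gatm, the first enzyme of creatine synthesis, differed by -1.36 ± 0.25 (edgeR adjusted p = 0.00786). In the Trem2+ class Gatm had 85.2, 41.0 and 69.3 CPM in BD+ICB and 213, 189 and 206 in ICB tumours. In the M1-named class it had 409, 374 and 265 CPM in BD+ICB and 255, 305 and 310 in ICB tumours. Without blockade the diet groups overlapped in both classes. The Trem2+ class had 283, 70.7 and 87.6 CPM of Gatm in BD and 293, 86.8 and 119 in SD tumours. The M1-named class had 295 and 140 CPM in BD and 287 and 85.1 in SD tumours. Tmem176a and Tmem176b, paired membrane proteins of myeloid cells, differed by 3.09 ± 0.55 and 1.79 ± 0.38, and Egr1 by 1.46 ± 0.27. Egr1 had 511 ± 166 CPM in BD+ICB, 226 ± 49.9 in ICB, 103 ± 59.9 in BD and 83.0 ± 33.4 in SD tumours in the Trem2+ class (SD, n = 3 each), and at most 65.0 on average in any group of the M1-named class. For Tmem176a the M1-named class had 1.92, 2.44 and 2.41 CPM in BD+ICB, 27.4, 41.8 and 4.54 in ICB, 0 and 0 in BD and 28.7 and 31 in SD tumours. These M1-named values rest on few UMIs, with 3, 4 and 3 in the BD+ICB tumours and 0 in both BD tumours. In the Trem2+ class Tmem176a had 52.7 ± 43.4 CPM in BD+ICB, 62.8 ± 39.9 in ICB, 61.2 ± 21.1 in BD and 123 ± 47.6 in SD tumours (SD, n = 3 each). In no diet pair of the Trem2+ class did Tmem176a itself pass.

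**Figure D5:**
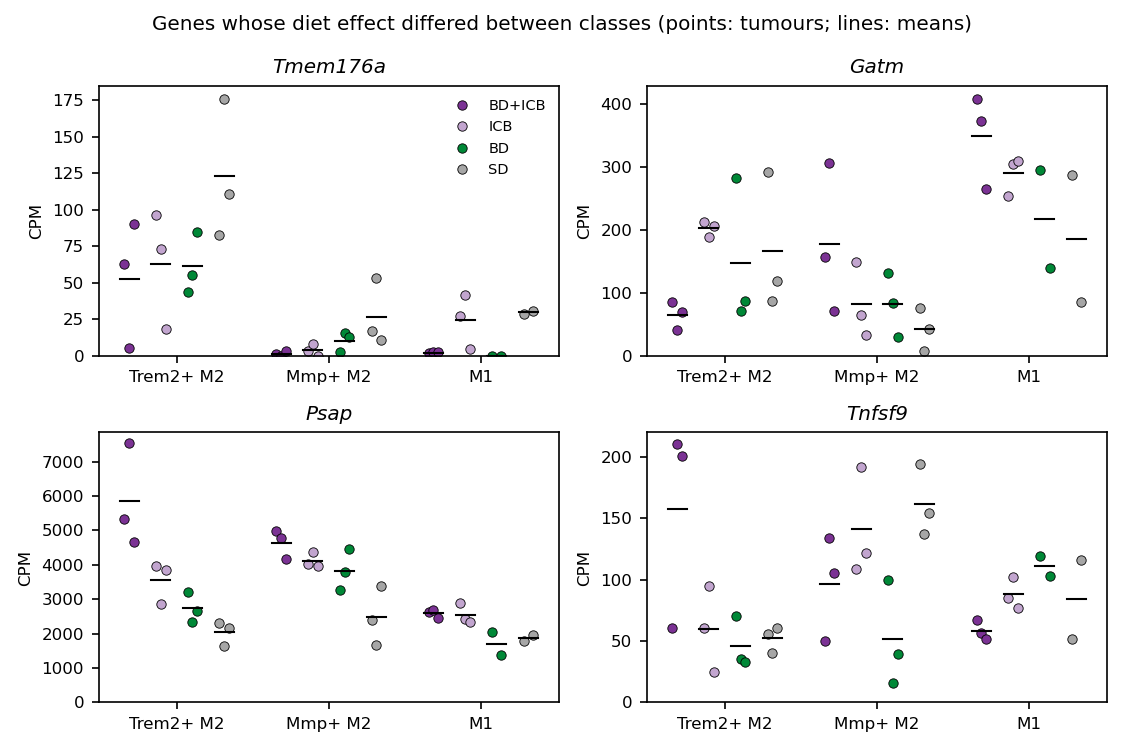
CPM of 4 genes per tumour (points) with group means (lines) in Trem2+ M2, Mmp+ M2 and M1-named macrophages, for tumours with at least 10 cells of the class. Tmem176a is near 0 on the butanediol diet in the M1-named class, Gatm is lower in all BD+ICB than in all ICB tumours in the Trem2+ class, and Tnfsf9 is lower in BD than in SD tumours in the Mmp+ class.

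The same difference was taken for the library with blockade over the other, a comparison added after the data were seen. Against M1-named macrophages 4 of 6543 genes (0.0611%) differed. Junb, Acp5, an acid phosphatase, and Ier3 differed by 0.79 ± 0.14, 1.58 ± 0.28 and 0.82 ± 0.16 on the log2 scale, with the Trem2+ class higher, and Gatm by -1.34 ± 0.26. Junb had 2490, 2200 and 2400 CPM in BD+ICB, 2200, 2480 and 1810 in ICB, 1650, 1740 and 1850 in BD and 844, 1550 and 1200 in SD tumours in the Trem2+ class. In the M1-named class Junb had 1440, 1460 and 1320 CPM in BD+ICB, 1560, 1170 and 1140 in ICB, 1330 and 1840 in BD and 1160 and 1080 in SD tumours. Against Mmp+ M2 macrophages 1 of 5434 genes (0.0184%) differed, Ppbp, a platelet chemokine. It was at 0 in the Trem2+ class of all 6 blockade tumours and at 2.12 to 12.9 CPM in the other 6, while in the Mmp+ class ICB tumour 3 reached 350 CPM.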

How the data were processed

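Single cells of 12 tumours were measured in 2 droplet libraries. The deposited matrices and expression table hold UMI counts. Cell Ranger 6.1.1 made the matrices, per their headers, and mm10 and R 4.1 are listed in the submitters' processing notes. Gene counts were taken from the expression table, whose total equalled the listed UMIs in all 5749 cells. The matrix total did so in 4369 cells. Each cell's class, cluster, tumour and percent of mitochondrial UMIs were used as the authors deposited them; how cells were clustered and named is not stated in these sources. Of 18848 genes in the table, 18821 matched 1 gene ID. Doublets were not called, and 730 of the 757 cells met a stricter hashtag rule, with a top hashtag of 10 or more counts and 3 times the next.

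Counts were summed per tumour, all of which had at least 10 cells of the class, and fitted on 4 group means with edgeR 4.0.16 in R 4.3.3 (quasi-likelihood, TMM, filterByExpr, robust). P-values were adjusted over all genes tested by Benjamini and Hochberg's method, with 0.05 as the threshold. Class differences were interactions with the tumour as a block. CPM do not use TMM factors, and clusters were compared on log2(CPM + 20). Shares were compared by two-sided exact permutation. Intervals and limits of shares cover counting error only. The fit was tested on simulated counts.

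Genes were named by rule: in each comparison the called genes of smallest adjusted p, at most 15 in either direction, or the 5 of smallest p where fewer than 5 passed, the markers, and up to 4 per list by p or by level. The members, lists and rules were chosen with earlier results of these data known, so no list is independent evidence. Alternatives were DESeq2 1.42.0, RLE factors, no low-count filter, minimums of 30 cells or 1000 UMIs, the stricter hashtag rule, a replicate block, other denominators, and each tumour left out in turn; analyses of 1 cluster and of the library by class were added after the data were seen.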

Additional observations from a re-analysis of the deposited data

Results flagged for a closer look

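Differences of an effect between Trem2+ M2 macrophages and a neighbouring class were flagged because the difference itself passed the test. For the diet against M1-named macrophages these were Tmem176a (log2 difference 3.09), Egr1 (1.46), Psap (0.63), Tmem176b (1.79) and Gatm (-1.36), with 344 of 6543 genes at an unadjusted p under 0.05. For the diet against Mmp+ M2 macrophages it was Tnfsf9 (1.67). For the library with blockade over the other, against M1-named macrophages, these were Junb (0.79), Acp5 (1.58), Ier3 (0.82) and Gatm (-1.34), and against Mmp+ M2 macrophages Ppbp (-7.57), a fitted value that depends on the prior count, as the class held no Ppbp UMI in the 6 blockade tumours. The M1-named class had 2 BD and 2 SD tumours with at least 10 cells, and it held no Tmem176a UMI in those 2 BD tumours.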

How the results depend on the processing

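The 119 results followed were each a gene in 1 comparison, so a gene can occur more than once, or a count of class differences. Of their 2230 alternatives, 1820 kept direction and call, or a count near the main one. Another 381 kept direction but lost the call and 0 reversed. The rest were counts of class differences that moved, 25 with a tumour left out and 4 otherwise. Shares, none of which had passed, did change sign: BD over SD was 6.58 points among all cells and -17.4 among macrophage classes, and BD+ICB over ICB and the diet over both changed sign when single tumours were left out. With no filter on low counts, edgeR called 1 gene in BD over SD, 25 in BD+ICB over ICB, 26 for the diet over both libraries, 1 for the diet difference and 308 in BD+ICB over BD, and 19 and 12 diet differences against the Mmp+ M2 and M1-named classes and 46 and 36 library differences against the same classes. DESeq2 called 3 genes in BD+ICB over ICB and 2 for the diet over both, and RLE factors gave 1 in each. With at least 30 cells per tumour, which left 1 BD+ICB, 1 ICB, 2 BD and 3 SD tumours and assumes that a lone tumour varies like the others, 2 genes passed in BD+ICB over ICB, 2 for the diet difference and 7 in BD+ICB over BD, 2 of them among the 199; class differences could not be fitted. The stricter hashtag rule gave 4 genes in BD+ICB over ICB, and cluster 8 alone 3 in BD over SD. The causes were not tested.

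Leaving out each tumour gave 0 to 2 genes in BD over SD, 0 to 6 in BD+ICB over ICB, 0 to 5 for the diet over both, 0 to 1 for the diet difference, 9 to 379 in ICB over SD and 32 to 303 in BD+ICB over BD. It gave 1 to 3 and 2 to 9 diet differences, and 1 to 5 and 3 to 8 library differences, against the Mmp+ M2 and M1-named classes. The difference in share ran from 5.94 to 7.68 points in BD over SD, from -11.6 to 0.955 in BD+ICB over ICB, from -2.52 to 3.77 for the diet, from -16.7 to -4.16 in ICB over SD and from -23.8 to -21.7 in BD+ICB over BD.

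Correlations of same-numbered tumours ran from -0.0711 to 0.194, so the numbers were not taken to pair them. With the replicate block edgeR called 301 genes in ICB over SD, 254 of them shared with the 289, and 231 in BD+ICB over BD, 189 shared with the 199, and 0 in BD over SD and in BD+ICB over ICB. For the share in BD+ICB over BD, edgeR on cells per class gave a log2 fold change of -2.46 (adjusted p = 0.00602), and -2.62 with the replicate block (adjusted p = 0.000819). Depth limits the BD+ICB tumours, with 18 to 44 cells of the class each.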
